A study of Mus musculus with 16 samples.

Results

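The expression profile described here is that of the control colon epithelium on normal water, taken from the 4 control libraries of the 16 in the study. These 4 libraries, named control 1 to control 4, were chosen by their labels alone (genotype Villin-Cre, no treatment), and no expression value entered the choice. The study asked how mTORC2, the kinase complex that needs Rictor, acts in colitis, and also sequenced epithelium of Rictor conditional knockout (cKO) mice and of both genotypes given 3% dextran sulfate sodium (DSS) in the drinking water, at 4 libraries a group. The control genotype is given as Villin-Cre and the cKO genotype as Rictor Flox; Villin-Cre, so both carry the transgene, and the labels do not say whether the controls carry floxed alleles. The Villin promoter drives the Cre recombinase in epithelial cells along the intestine. The labels give the source as colonic epithelial cells of the mouse colon and state neither age, sex, colon segment nor whether a library holds 1 animal. Spread between the 4 libraries is therefore the spread between these samples and may be partly technical. All values are levels, given as deposited FPKM (fragments scaled to the length of the gene and to the mapped fragments of the library), with means ± SD over 4 libraries, and lists of 4 values run from control 1 to control 4.

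The colonic epithelium is a single layer of cells renewed from stem cells at the base of the crypts. Absorptive colonocytes, the most abundant type, take up sodium, chloride, water and the short-chain fatty acids made by bacteria. Goblet cells secrete the mucus that keeps bacteria away, enteroendocrine cells release peptide hormones, and tuft cells sense luminal compounds. In bulk RNA a low level of a cell type's genes can come from few cells of that type or from little RNA per cell, and these cannot be told apart here.

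Fragment counts recovered from the deposited values came to 14489846 to 16201539 a library, 95.5 to 96.7% of them from protein-coding genes. A further 0.979 to 1.60% came from genes typed as ribosomal RNA. Control 4 stood apart from the other libraries. Its log2 levels correlated with those of the others at Pearson r 0.967 to 0.981, against 0.982 to 0.987 among controls 1 to 3, over 10403 genes. Every pair of libraries differed by more than counting noise, with a chi-square per degree of freedom of 16.9 to 50.7. Deviations from the mean of the libraries went with base composition and gene length: over 4274 genes, Spearman's rho with transcript GC content was -0.400, -0.346, 0.116 and 0.445 in controls 1 to 4, and with gene length it was 0.262, 0.407, 0.0484 and -0.491. The GC trend was negative in controls 1 and 2 and positive in controls 3 and 4, the same split of libraries as that of goblet cell and MHC class I genes described below. The part of composition and length in the differences between libraries given below was not tested.

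Of the 8 genes chosen to mark the tissue, the absorptive and differentiation genes stood high and the tuft and stem cell genes low. Car1 (ENSMUSG00000027556, chr3:14766216-14808368 in mm10), a cytosolic carbonic anhydrase of surface colonocytes, was at 3731, 1984, 3649 and 2004 FPKM, rank 9 of 21936 protein-coding genes. Its libraries fell into a higher pair, controls 1 and 3, and a lower pair, controls 2 and 4. Krt20 (ENSMUSG00000035775, chr11:99428403-99438150), the keratin of differentiated intestinal cells, was at 491, 423, 591 and 501 FPKM and rank 55. Aqp8 (ENSMUSG00000030762, chr7:123462291-123468004), a water channel, was at 209, 165, 248 and 298 FPKM and rank 140. Slc26a3 (ENSMUSG00000001225, chr12:31390871-31473917), the apical exchanger of chloride for bicarbonate, was at 137, 136, 179.9 and 114 FPKM and rank 243. The order of Krt20, Aqp8 and Slc26a3 was the same in every library. Chga (ENSMUSG00000021194, chr12:102554969-102565028), the granule protein chromogranin A of enteroendocrine cells, was at 10.2, 9.05, 14.4 and 9.06 FPKM and rank 4041. Muc2 (ENSMUSG00000025515, chr7:141690340-141754693), the gel-forming mucin of goblet cells, was listed at 3.18, 5.75, 2.93 and 1.41 FPKM, rank 7880, far below other goblet cell genes. Lgr5 (ENSMUSG00000020140, chr10:115450311-115587780), a receptor that marks crypt base stem cells, was at 1.30, 1.22, 1.15 and 0.528 FPKM and rank 10331. Dclk1 (ENSMUSG00000027797, chr3:55242364-55539068), a kinase used as a tuft cell marker, was at 0.774, 0.835, 0.901 and 0.994 FPKM and rank 10587. The libraries of Lgr5 and Dclk1 overlapped, whereas those of Chga and Muc2 did not. Lgr5 and Dclk1 rested on 671 and 828 fragments over the 4 libraries, with exact Poisson 95% intervals of the pooled level of 0.978 to 1.14 and 0.816 to 0.936 FPKM, which cover counting error only.

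The start sites of Krt20 and Slc26a3 are shown because both markers carry a TATA box close to the start, which few mouse promoters do. The 80 bases before each start in RefSeq (GRCm38.p6) read 5′ to 3′ on the gene's strand, with TATAAA in capitals. Krt20 is on the minus strand at chr11:99438154-99438233 and Slc26a3 on the plus strand at chr12:31438139-31438218.
Krt20: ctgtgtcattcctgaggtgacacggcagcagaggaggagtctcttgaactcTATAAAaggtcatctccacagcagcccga
Slc26a3: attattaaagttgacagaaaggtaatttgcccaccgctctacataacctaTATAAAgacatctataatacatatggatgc
The letters TATAAA began 29 bases before the start of Krt20 and 30 bases before that of Slc26a3. For Slc26a3 this RefSeq start lies well inside the span of the measured gene given above, not at its edge. For Krt20 the start lies next to the edge of the span. On the gene's strand, 7.59% of 32851 RefSeq promoters held them anywhere in the 250 bases before the start. Of the 24 absorptive colonocyte genes listed for this report, 19 had a promoter in the table and 4 held the letters, the others being Tmigd1 and Cyp2c55. A gene was counted if any of its listed starts held them, whereas the 7.59% is a share of single promoters. A match describes the letters of the window and was not tied to any measured binding.

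In the profile as a whole, 10403 of 21936 protein-coding genes (47.4%) had a mean of at least 1 FPKM, 408 had at least 100 and 23 had at least 1000. No fragment was seen for 5737 of them. The RNA was concentrated in few genes: the 10 highest held 24.5 ± 1.86% of the summed FPKM of protein-coding genes, the 100 highest 42.8 ± 1.59% and the 1000 highest 70.2 ± 1.38%. The 13 protein-coding genes of the mitochondrial genome alone held 20.3 ± 2.68%, from 18.0% in control 2 to 24.0% in control 4. They also gave much of the weight of the 10 highest genes, since 5 of those 10 were mitochondrial.

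Within the mitochondrial genome the levels were uneven. The gene mt-Co1, for the catalytic subunit of cytochrome c oxidase, was the highest gene of the profile at 29050.4, 25341, 31614 and 40346 FPKM. Cytochrome b (mt-Cytb) followed at 10773, 11619.6, 13257 and 17859 FPKM and the complex I subunit gene mt-Nd1 at 7132, 6604, 7607 and 9712 FPKM. Both orders held with no overlap between libraries, and control 4 was highest for each. The 2 other cytochrome c oxidase genes were far lower, with mt-Co2 at 504, 342, 245 and 333 FPKM and mt-Co3 at 264, 172, 160.3 and 204 FPKM. The ATP synthase gene mt-Atp6 was at 409, 470.1, 360.1 and 698 FPKM, and the short genes mt-Nd3, mt-Nd4l and mt-Atp8 were at means of 60.8, 79.4 and 9.52 FPKM. The mitochondrial genome has nuclear copies, and how fragments that fit both places were counted is not given in the sources used here.

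Outside the mitochondrial genome the highest genes were those of surface colonocytes, secretory cells and the cell's frame. Lypd8, a membrane-anchored protein of surface colonocytes that keeps flagellated bacteria away, led at 6652, 4633, 5902 and 5527 FPKM, rank 4 overall. Mptx1, the mucosal pentraxin, was next at 4136, 6202, 2497 and 2398 FPKM and was higher in controls 1 and 2 than in 3 and 4. Krt8, a keratin of the intermediate filaments of simple epithelia, was at 3412, 2716, 3007 and 3426 FPKM, and Krt19, a keratin of the same kind, was lower in every library at 1913, 1843, 2088 and 2405 FPKM. Guca2a encodes guanylin, the peptide that drives fluid secretion through guanylate cyclase C, and was at 2917, 2225, 1976 and 2600.3 FPKM. Clca1, a mucus protease of goblet cells, was at 2052, 3096, 961 and 806 FPKM, a range of 3.84-fold between libraries. Pigr, which carries IgA across the epithelium, was at 1881, 1539.9, 1479.9 and 1487 FPKM. Lgals4, a galectin of intestinal epithelium, was at 1124, 1181, 1243 and 1677 FPKM, and the membrane mucin gene Muc3 at 1173, 1165, 1350.2 and 1247 FPKM. Among the secretory genes that followed were Ang4, an antimicrobial ribonuclease, Spink4, a protease inhibitor of goblet cells, and Retnlb, which acts on helminths and bacteria, with means of 1131, 1031 and 908 FPKM. The pore-forming gasdermin family was represented by Gsdmc4 at 1251, 928, 818 and 1399 FPKM. Of the 29 pairs of neighbours in the order of the 30 highest genes, 2 did not overlap between libraries and 5 kept their order in every library. All 5 of the latter lay among the 8 highest genes, and the remaining pairs changed order in at least 1 library.

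**Figure D1:**
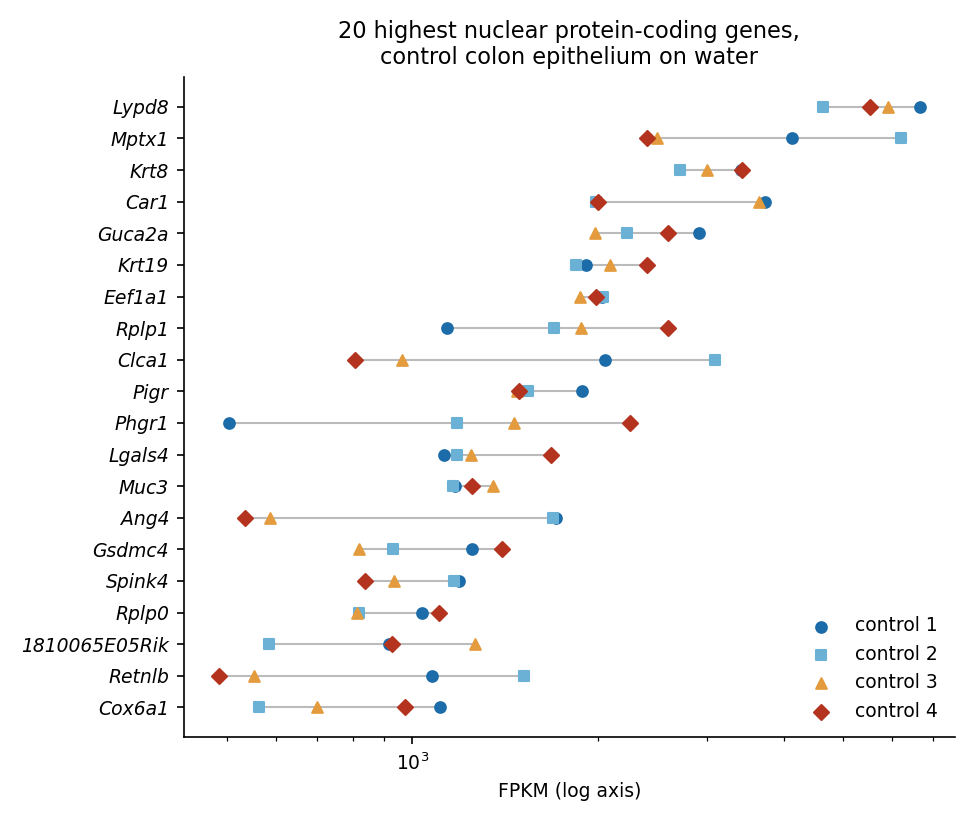
Levels of the 20 highest nuclear protein-coding genes in FPKM on a log axis, 1 symbol for each of the 4 control libraries on water and a grey line over their range. Lypd8 led in 3 of 4 libraries, and Mptx1, Clca1, Ang4 and Retnlb were higher in controls 1 and 2 than in 3 and 4.

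Solute carriers, which move small molecules across membranes, held 1.11 ± 0.109% of protein-coding FPKM. Of 330 genes outside the mitochondrial carriers, 167 (50.6%) reached 1 FPKM, near the 47.4% of all protein-coding genes, and 71 reached 10. The highest was Slc6a14, which takes up neutral and cationic amino acids, at 289.6, 253, 302 and 232 FPKM. Slc44a4, a carrier of choline and thiamine pyrophosphate, followed at 199.5, 176, 182 and 158 FPKM. Slc26a3 came next, and its range overlapped that of Slc13a2, the sodium-coupled carrier of citrate cycle acids, at 123, 112, 151 and 146 FPKM. Slc9a3, which exchanges sodium for protons at the apical membrane and pairs with Slc26a3 in salt uptake, was at 92.8, 81.6, 175 and 73.8 FPKM, with control 3 above the other libraries. Library ranges also overlapped among the next carriers. The zinc importer gene Slc39a4 was at 125, 106, 103 and 74.8 FPKM, the sulfate carrier gene Slc26a2 at 107, 103, 111 and 77.6 FPKM and the creatine carrier gene Slc6a8 at 93.2, 99.1, 98.5 and 107 FPKM. Among the mitochondrial carriers, Slc25a5, the exchanger of ADP for ATP, was at 705, 619, 665 and 671 FPKM and the phosphate carrier gene Slc25a3 at 175, 181, 192 and 198 FPKM.

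Butyrate, the main fuel of colonocytes, enters them through Slc5a8 and Slc16a1, both of which stood among the 10 highest solute carriers. Slc5a8, the sodium-coupled carrier, was at 124, 110.5, 100.2 and 90.4 FPKM, and Slc16a1, the proton-coupled carrier, at 92.1, 102, 91.4 and 104 FPKM; the libraries of both genes overlapped. Bsg, which chaperones Slc16a1 to the membrane, was at 449, 372, 409 and 438 FPKM. Acads, the dehydrogenase of short-chain acyl-CoA, was at 158, 101, 137 and 145 FPKM. Cpt1a, the entry step of long-chain fatty acid oxidation, varied little, with a coefficient of variation (CV, SD over mean) of 1.92% around 44.8 FPKM. The receptors that sense these acids were low: Ffar2 was at 3.96, 4.96, 3.21 and 4.42 FPKM, Ffar3 at 0.326, 0.190, 0.109 and 0.507 and Hcar2, a receptor for butyrate and ketone bodies, at 0.0693, 0.243, 0.173 and 0.139 FPKM. In all, 11 of the 14 genes listed for butyrate uptake and ketone synthesis reached 1 FPKM.

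Genes of electrolyte and water transport summed to 7594, 5429.7, 7705 and 4956 FPKM over 33 listed genes, of which 26 reached 10 FPKM. Car1 made up 44.3% of the sum. Atp1b1, the β subunit of the sodium pump that drives the uptake of salt, was at 777, 641, 651 and 469.7 FPKM, with control 4 lowest. Carbonic anhydrases, which supply bicarbonate and protons to the exchangers, held 1.13 ± 0.357%: beside Car1, the cytosolic Car2 was at 440.0, 356, 481 and 372 FPKM and the membrane-anchored Car4 at 233.7, 214, 321 and 196 FPKM. Aqp8, Aqp4 and Aqp1 were well above the other aquaporins, and 4 of 11 reached 1 FPKM. Aqp4 was at 212, 199, 162 and 143 FPKM and Aqp1 at 35.1, 33.4, 47.4 and 25.6 FPKM, and the libraries of Aqp8 and Aqp4 overlapped. The kidney type channel gene Aqp2 was at 0 in all 4 libraries, which allows up to 0.0342 FPKM at the limit of 3 fragments over the group.

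Pumps, carriers of the ABC family and channels added to this set. P-type ATPases together held 0.664 ± 0.135% of protein-coding FPKM, with 0.464% in control 4 below every other library. Atp2a3, a calcium pump of the endoplasmic reticulum, was at 229, 249.8, 206 and 197 FPKM, and Atp12a, the colonic pump that takes up potassium, at 43.0, 38.9, 52.1 and 56.6 FPKM. Abcb1a, an efflux pump for drugs, was the highest ABC transporter gene at 100.4, 77.6, 132 and 81.6 FPKM, and Abcc3, which exports conjugates, followed at 87.1, 70.5, 88.5 and 73.6 FPKM with overlapping libraries. Channels that secrete chloride or recycle potassium were lower than Atp1b1. Cftr, the cAMP-gated chloride channel, was at 33.0, 29.4, 37.6 and 22.3 FPKM, and Ano1, a calcium-activated one, at 34.9, 38.2, 27.7 and 30.6 FPKM. Clcn2, a chloride channel of colonocytes, was higher at 78.6, 70.5, 90.1 and 66.5 FPKM, with no overlap with Cftr. Kcne3, the accessory subunit of the basolateral potassium channel of crypt cells, was at 87.3, 93.8, 90.3 and 107 FPKM, and Kcnq1, its pore, was lower at 30.3, 24.3, 36.5 and 24.0 FPKM. The epithelial sodium channel was uneven across its subunits. The α subunit gene Scnn1a was at 36.2, 40.7, 39.6 and 34.6 FPKM, the β subunit gene Scnn1b at 1.09, 0.912, 1.02 and 1.17 FPKM and the γ subunit gene Scnn1g at 0.224, 0.255, 0.649 and 0.179 FPKM. The 3 subunits did not overlap in any library. Nr3c2, the mineralocorticoid receptor that controls this channel, was at 24.5, 22.2, 22.8 and 18.1 FPKM, and Hsd11b2, which shields it from corticosterone, at 184, 227, 220.1 and 184 FPKM. The exchanger gene Slc26a6 had fragments in control 1 alone, at 0.0494 FPKM.

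**Figure D2:**
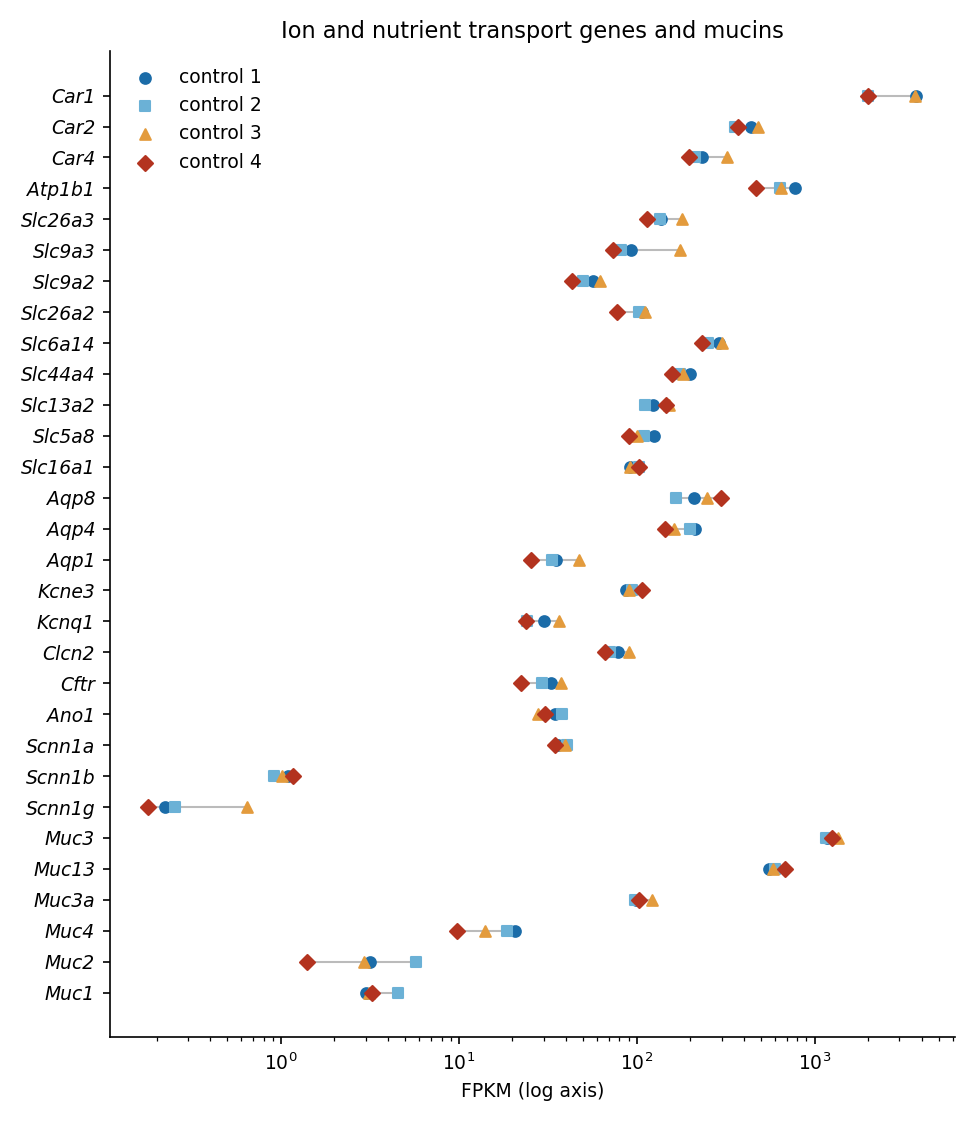
Levels of named transporters, carbonic anhydrases, a sodium pump subunit, aquaporins, channels and mucins in FPKM on a log axis, 1 symbol per control library and a grey line over their range. Scnn1b and Scnn1g lie far below Scnn1a, and Muc2 lies below Muc3 and Muc13 by more than the spread of the libraries.

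Mucins fell into a high membrane-bound group and a low remainder. Of 13 mucin genes, 6 reached 1 FPKM, and their sum of 1852 to 2076 FPKM came almost entirely from 3 genes. Muc3 was at 1233.8 ± 86.0 FPKM, Muc13, a membrane mucin of the whole gut, at 553, 599.8, 584 and 679.6 FPKM and Muc3a at 98.6, 97.3, 122 and 104 FPKM. The 3 did not overlap. Muc3 and Muc3a are close relatives, and fragments that fit both could have been split or dropped in counting. Muc4 was at 20.7, 18.8, 14.1 and 9.72 FPKM and Muc1 at 3.02, 4.54, 3.11 and 3.25 FPKM. No fragment was seen for Muc5ac, the gel-forming mucin of the stomach, nor for Muc15, whereas Muc5b, Muc6, Muc16, Muc19 and Muc20 each had a mean under 1 FPKM. The low Muc2 value stood beside an unnamed gene model on a patch sequence of the assembly (CHR_MG3172_PATCH), at positions 141690026 to 141722647, which overlap the positions of Muc2 on chromosome 7. Its length was 11978 bases against 7127 for Muc2. It was at 18.2, 31.3, 19.8 and 13.3 FPKM, 5.44 to 9.43 times Muc2 in the same library. The highest library, control 2, and the lowest, control 4, were the same for both. Whether the 2 models share their fragments was not tested.

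Most G protein-coupled receptor genes were low or unseen. Of 318 genes matched as such, 46 (14.5%) reached 1 FPKM, against 47.4% of all protein-coding genes. Of the 318, 15 reached 10 FPKM and 105 had no fragment. The class held 0.242 ± 0.0296% of protein-coding FPKM, with control 4 lowest at 0.198%. Adgrg7, an adhesion receptor of the intestine, was highest at 202, 168, 159 and 117 FPKM. Gprc5a, an orphan receptor of epithelia, was at 101, 97.0, 150.5 and 98.4 FPKM, with control 3 above the rest. Vipr1, the receptor for vasoactive intestinal peptide, was at 64.0, 62.8, 71.0 and 65.9 FPKM and F2rl1, the protease-activated receptor PAR-2, at 48.3, 45.5, 45.0 and 34.1 FPKM. Lgr4, a receptor for R-spondins in crypts, was at 46.1, 45.4, 36.4 and 35.4 FPKM, above its relative Lgr5 in every library.

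Tyrosine kinase receptors of the ERBB family led their class, with Erbb3 at 58.6, 54.4, 56.0 and 55.0 FPKM and Erbb2 at 49.0, 42.9, 43.6 and 43.6 FPKM. Of 57 tyrosine kinase receptor genes, 29 (50.9%) reached 1 FPKM, near the 47.4% of all protein-coding genes. Among cytokine receptors the interferon-γ receptor gene Ifngr1 was highest at 87.9, 85.6, 84.4 and 79.6 FPKM, and its partner Ifngr2 was at 42.7, 35.0, 38.3 and 37.8 FPKM, below it in every library. Il17rc, a subunit of the receptor for interleukin 17, was at 71.6, 70.6, 73.9 and 85.5 FPKM. The class varied little between libraries: the 11 members at 10 FPKM or more had CVs of 4.15 to 11.9%. Of the TGF-β family receptors, Acvr1b was highest at 44.0, 36.5, 44.7 and 32.8 FPKM, followed by the BMP receptor gene Bmpr1a at 18.6, 15.4, 15.2 and 13.3 FPKM. Among sensors of microbes, the inflammasome gene Nlrp6 was at 78.9, 68.6, 69.2 and 80.4 FPKM, Tlr1 at 31.6, 30.1, 27.2 and 27.6, Aim2, which senses DNA, at 17.4, 17.3, 14.5 and 18.4 and Tlr2 at 15.02, 9.54, 11.6 and 8.26 FPKM.

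Enzymes of xenobiotic and steroid handling included some high single genes. Among 99 cytochrome P450 genes, 25 (25.3%) reached 1 FPKM, against 47.4% of all protein-coding genes. Cyp2c55, an oxygenase of arachidonic acid, led at 470.3, 417, 677 and 499 FPKM, rank 53. Cyp2d34 followed at 106, 109.6, 92.9 and 123 FPKM and Cyp2c65 at 96.1, 57.9, 96.7 and 55.5 FPKM. Cyp2c55 was above both in every library, and the latter 2 did not overlap except between control 3 of Cyp2d34 and controls 1 and 3 of Cyp2c65. Conjugating enzymes were led by Mgst3, a microsomal glutathione transferase, at 265, 219, 308 and 334 FPKM. Sult1a1, a phenol sulfotransferase, was at 212, 177, 203 and 206 FPKM and Ugt2b34, a glucuronosyltransferase, at 173, 133, 148 and 104 FPKM, each the highest of its family. The alcohol dehydrogenase gene Adh1 was at 198, 233.9, 198 and 292 FPKM and the aldehyde dehydrogenase gene Aldh2 at 85.3, 100.4, 114 and 141 FPKM. Aldh1a1, which makes retinoic acid, was at 38.9, 18.7, 51.3 and 20.6 FPKM, with controls 1 and 3 above controls 2 and 4, the split seen for Car1. Carboxylesterases of the Ces1 group followed the same split: Ces1g was at 29.5, 9.94, 28.8 and 11.3 FPKM and Ces1f at 26.003, 11.3, 30.5 and 16.04 FPKM. The Ces2 group was higher, with Ces2e at 85.2, 62.2, 86.5 and 78.1 FPKM and Ces2c at 79.8, 49.7, 85.4 and 68.2 FPKM. Close copies exist in the Cyp2c, Ugt, Ces and Akr1c families, so their single values carry the uncertainty of how shared fragments were counted. Proteases were led by the kallikrein gene Klk1 at 578, 599.8, 472 and 649 FPKM and the serine protease gene Prss32 at 143, 253, 314 and 410.1 FPKM.

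Transcription factors, 876 genes by DNA-binding family or symbol, held 1.70 ± 0.0994%. Of them 355 (40.5%) reached 1 FPKM, against 47.4% of all protein-coding genes. Cdx1, a homeobox factor of intestinal identity, was the highest at 272, 308, 346 and 422 FPKM, rank 87. Klf4, which acts in differentiation and in goblet cells, was at 196, 240.3, 241 and 252 FPKM, Elf3, an epithelial ETS factor, at 181, 194, 197 and 233 FPKM and Hnf4a, a nuclear receptor of enterocyte genes, at 183, 168, 184 and 202 FPKM. Between these last 3 the libraries overlapped. Id1, an inhibitor of basic helix-loop-helix factors, was at 163, 150.2, 192 and 211 FPKM, and Cdx2, the partner of Cdx1 in intestinal identity, at 122, 100.4, 135 and 146 FPKM, below Cdx1 in every library. Klf5, a factor of crypt proliferation, was at 109, 109, 106 and 110.1 FPKM, and its CV of 1.59% was the lowest among protein-coding genes of at least 100 FPKM.

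Position along the gut was marked by Hox genes and regional factors. Hoxb13, a gene of the distal colon, was the highest Hox gene at 94.8, 109, 80.7 and 92.5 FPKM. Of 39 Hox genes 20 (51.3%) reached 1 FPKM, near the 47.4% of all protein-coding genes. Gata4, which specifies proximal small intestine, was at 0.445, 0.120, 0.240 and 0.223 FPKM, under its relative Gata6 at 10.7, 12.2, 12.4 and 11.5 FPKM in every library. Of the 41 gut transcription factors listed, 39 reached 1 FPKM, and the exceptions were Gata4 and Prdm1, a repressor active in the fetal small intestine, at 0.911, 0.588, 0.624 and 0.504 FPKM. The receptors for vitamin D (Vdr), bile acids (Nr1h4) and fatty acids (Pparg) were at means of 88.6 ± 7.49, 42.7 ± 5.20 and 29.8 ± 5.04 FPKM. Immediate early factors were high: Fos was at 167, 206, 183 and 197 FPKM, Jun at 100.4, 110.5, 106 and 114 and Junb at 83.2, 119.6, 123 and 109.6 FPKM, and all 12 listed immediate early and heat shock genes reached 1 FPKM.

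Genes of cell contact and of the cell frame formed a further high group. Of 53 keratin genes 10 reached 1 FPKM, and their share of 1.91 ± 0.0835% lay in Krt8, Krt19, Krt20 and Krt18, the last at 359.6, 308, 307 and 377 FPKM. Among 32 claudin genes, which set how tight the junctions are, Cldn3 was at 429, 451, 504 and 611 FPKM and Cldn7 at 446, 405, 433 and 490.5 FPKM, with overlapping libraries. Cldn2, which forms a pore for cations, was lower at 37.5, 47.1, 48.1 and 42.1 FPKM. Cldn8, a sealing claudin of the distal colon, was at 27.5, 39.3, 19.9 and 67.4 FPKM, with control 4 highest, control 3 lowest and a CV of 54.1%. Ceacam1, an adhesion molecule, was at 829.7, 731, 795 and 587 FPKM, and Cdhr5 and Cdhr2, the cadherins that link the tips of microvilli, were at means of 308 ± 16.8 and 143 ± 19.0 FPKM. Of the S100 genes S100a6, for a calcium-binding protein, was highest at 415, 297, 282 and 437 FPKM.

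The listed cell type markers were chosen with earlier results of these data known. Of the cell type lists, the pan-epithelial, absorptive and goblet lists had the highest sums. The enteroendocrine and tuft lists had medians of 1.13 and 0.682 FPKM, below the 1.34 FPKM of the T cell list. By mean sum the enteroendocrine list, at 148 FPKM, was above the T cell list, at 37.2 FPKM. The tuft list, at 23.4 FPKM, was below it. All 15 pan-epithelial and all 24 absorptive colonocyte genes reached 10 FPKM, with a summed level of 10568, 9624, 10569 and 11944 FPKM for the former and of 17454, 12488, 16196 and 14029 FPKM for the latter. Among all protein-coding genes, 4274 of 21936 reached that level. Epcam, an adhesion molecule of all these cells, was at 762, 704, 716 and 695 FPKM and varied little, and Cdh1, the cadherin of their junctions, was at 324, 318, 292 and 300.2 FPKM. Of 20 goblet cell genes 17 reached 10 FPKM. Reg4, of the deep crypt secretory cells of the colon, was at 762, 938, 579 and 430.0 FPKM, against 7.39, 9.28, 6.80 and 4.13 FPKM for Kit, a receptor on the same cells.

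**Figure D3:**
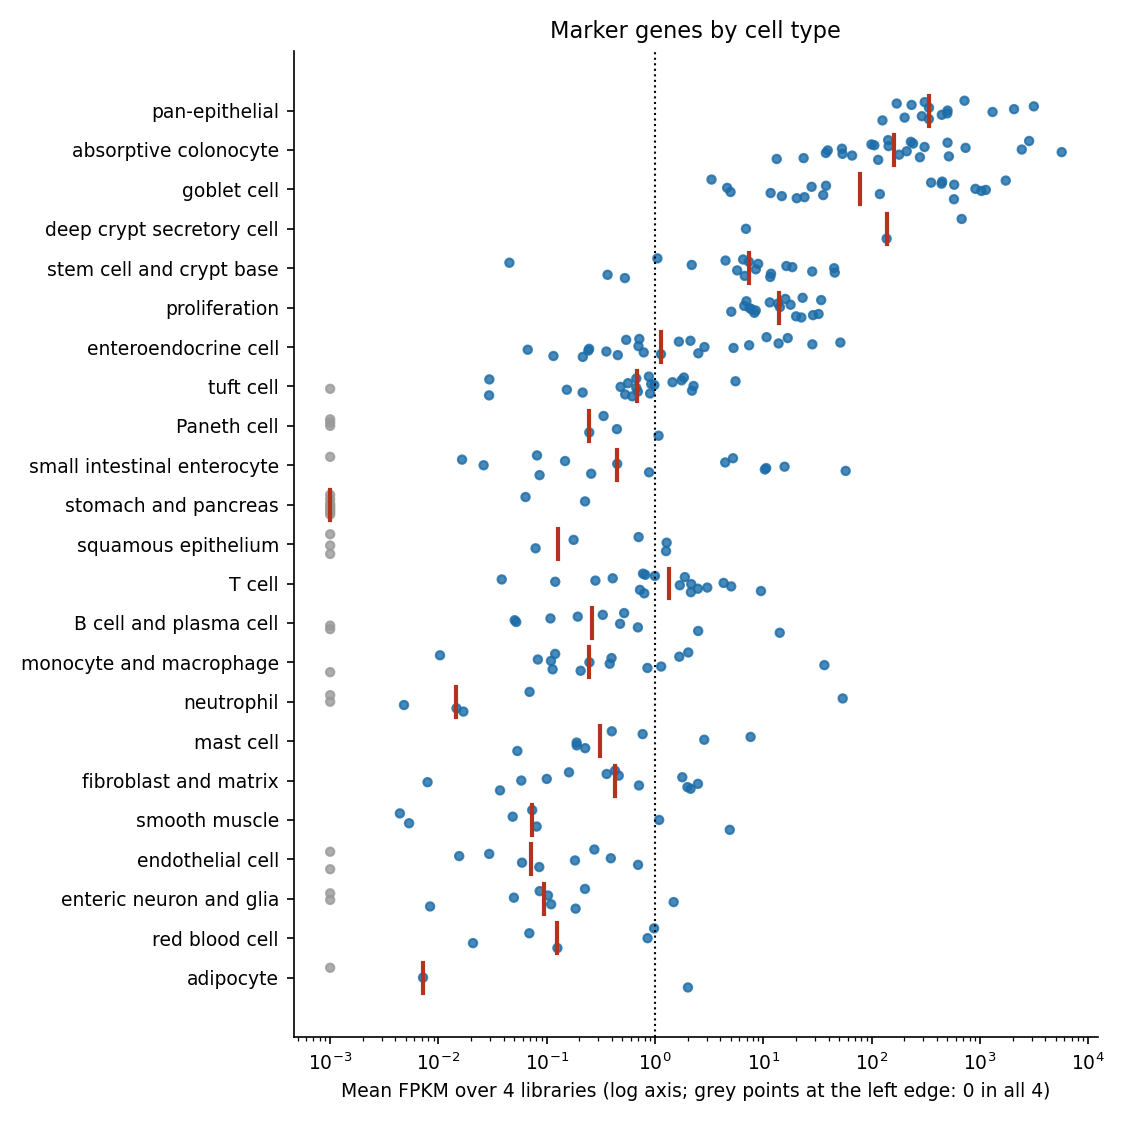
Mean FPKM over the 4 control libraries on a log axis for each gene of 23 cell type lists, with 1 point per gene, a red bar at the list's median, a dotted line at 1 FPKM and grey points at the left edge for genes at 0 in all 4. The pan-epithelial, absorptive and goblet lists lie mostly above 10 FPKM, while the medians of the lists for fibroblasts, smooth muscle, endothelium, macrophages and neutrophils lie under 1 FPKM.

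The rarer epithelial types were seen through their most abundant products. Enteroendocrine hormones were led by Pyy, for peptide YY of colonic L cells, at 38.9, 36.4, 53.02 and 77.1 FPKM, and Insl5, another product of those cells, at 25.96, 21.04, 25.6 and 40.7 FPKM. Gcg, the source of GLP-1, was at 15.6, 8.59, 17.8 and 13.3 FPKM and Sst, for somatostatin, at 6.49, 3.01, 5.94 and 5.76 FPKM. In contrast, transcription factors of this lineage lay near or under 1 FPKM: Neurod1 at 0.956, 0.580, 0.858 and 0.466, Neurog3 at 0.519, 0.805, 0.480 and 0.360 and Insm1 at 1.17, 1.21, 1.51 and 0.648 FPKM. In all, 12 of 23 enteroendocrine genes (52.2%) reached 1 FPKM, near the 47.4% of all protein-coding genes. Of 22 tuft cell genes 6 did, the highest being Sh2d6 at 3.56, 4.58, 7.17 and 6.81 FPKM. Trpm5, the cation channel of taste signalling, was at 1.31, 1.65, 2.36 and 2.06 FPKM and Pou2f3, the factor that specifies tuft cells, at 0.347, 0.645, 0.910 and 0.781 FPKM.

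Crypt genes were present at low levels. Of 19 stem cell and crypt base genes 16 reached 1 FPKM, but several of these are not limited to stem cells. Axin2, a target of Wnt signalling, was at 6.23, 6.94, 9.15 and 7.03 FPKM, and Ascl2, a stem cell factor, at 9.27, 5.52, 5.90 and 5.28 FPKM. Olfm4, which marks stem cells of the small intestine in mice, had fragments in only 2 libraries, at most 0.0904 FPKM. The summed level of the list was 245, 245, 244 and 184 FPKM, lowest in control 4. Proliferation genes stood higher, all 18 above 1 FPKM with a sum of 264, 269.6, 291 and 313 FPKM, and Mki67, of cycling cells, was at 23.1, 22.6, 21.2 and 25.2 FPKM.

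Markers of other gut segments were mostly at or near 0. Apoa4 of the small intestine was at 0 in all 4 libraries, and Fabp1, Lct and Sis were at means of 0.147, 0.0261 and 0.447 FPKM. Some genes of that list are also made by colon, and Slc5a1, the sodium-glucose carrier, was at 73.0, 61.7, 56.2 and 39.1 FPKM. Slc10a2, the bile acid carrier of the ileum, was at 11.2, 7.96, 18.3 and 3.82 FPKM, with a CV of 59.1%. Alpha-defensin genes of Paneth cells had fragments in controls 1 and 2 only, at most 0.979 FPKM for Defa24 and 0.840 FPKM for Defa30. Krt5 and Trp63, of squamous epithelium, were at 0, as were 8 of 10 stomach and pancreas genes.

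Genes of non-epithelial cells were low but not absent. T cell genes summed to 34.0, 40.7, 39.7 and 34.2 FPKM, and none of the 18 was at 0 in all 4 libraries. Of these genes 9 (50%) reached 1 FPKM, near the 47.4% of all protein-coding genes. The chemokine gene Ccl5 was at 7.25, 11.3, 10.2 and 9.21 FPKM, the granzyme gene Gzma at 5.12, 5.12, 4.52 and 5.39 FPKM and Cd8a, a co-receptor of cytotoxic and intraepithelial T cells, at 2.12, 2.01, 1.69 and 1.71 FPKM, against a mean of 0.0384 FPKM for Cd4. The immunoglobulin light chain gene Igkc was at 26.8, 18.6, 6.54 and 4.66 FPKM and fell into a higher pair and a lower pair of libraries. Mast cell genes were led by Mcpt1, a protease of mucosal mast cells, at 11.9, 5.20, 11.2 and 2.11 FPKM. The defining macrophage genes Csf1r and Adgre1 were at means of 0.120 and 0.0103 FPKM and Cd163 at 0, while Cd14, also made by epithelium, was at 33.8, 36.7, 31.3 and 44.5 FPKM. In the same way the neutrophil genes S100a9 and Csf3r were at 0, whereas Ly6g was at 53.5, 58.5, 57.3 and 46.6 FPKM. Ly6g and Cd14 made up 99.8% and 83.3% of the summed level of their lists. Fibroblast genes Col1a1 and Col3a1 were at means of 0.427 ± 0.0634 and 0.357 ± 0.0815 FPKM, the smooth muscle genes Acta2 and Myh11 at 0.0734 and 0.00440 FPKM, and the endothelial genes Pecam1 and Cdh5 at 0.275 and 0 FPKM. The enteric glia gene Sox10 was at 0. For a gene at 0 the limit of 3 fragments over the group allows up to 0.0928 FPKM for S100a9, 0.0134 for Csf3r, 0.0115 for Cdh5 and 0.0267 FPKM for Apoa4.

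Between the 4 libraries most genes varied little. The median CV was 11.5% among 3866 protein-coding genes of 10 to 100 FPKM, 14.96% among 385 genes of 100 to 1000 FPKM and 19.2% among the 23 genes above that. Counting error alone gives a CV of 2.83, 1.30 and 0.427% at the median of those ranges, so the observed spread was larger than counting error at every level, most of all for the highest genes. Beside Klf5, genes above 100 FPKM with a small spread included Ezr, which ties microvilli to actin, at 212, 222, 218 and 208 FPKM, the histone gene H3f3b, the ATP synthase gene Atp5c1 and the elongation factor gene Eef1a1, with CVs of 2.84, 3.01, 3.35 and 3.96%. Of 4574 genes of any type at 10 FPKM or more, antigen receptor segments left out, 95 (2.08%) had a CV above 50%. These were 45 protein-coding genes, 33 pseudogenes, 5 unnamed genes and 12 of other types.

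Among the widest spreads were genes with near-identical copies. Gapdh, a glycolytic enzyme with many processed pseudogenes, was listed at 1.93, 2.65, 3.67 and 39.8 FPKM, rank 3678, with control 4 far above the rest. Rps27rt, a copy of a ribosomal protein gene, was at 794, 39.2, 35.8 and 101 FPKM with control 1 highest. The ribosomal protein gene Rps3a1 was at 579.8, 500.2, 120.3 and 78.2 FPKM while its copy Rps3a2 ran the other way at 16.7, 104, 309 and 397 FPKM. Summed over Rps3a1, Rps3a2 and Rps3a3, the fragments were 8901, 10964, 8573 and 10002, a range of 1.28-fold, with the share of Rps3a1 falling from 95.1% in control 1 to 11.4% in control 4. The tropomyosin gene Tpm3 and its copy Tpm3-rs7 showed the same exchange: Tpm3 was at 51.8, 49.9, 17.4 and 17.3 FPKM and Tpm3-rs7 at 52.2, 39.4, 138 and 146 FPKM, and their summed fragments differed by no more than 1.10-fold. Values of single members of such families are uncertain.

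Goblet cell genes formed a group that differed between the libraries. Their summed level was 8946, 10792, 5104 and 5151 FPKM, higher in controls 1 and 2 than in controls 3 and 4. Both of the former were above both of the latter for 16 of 20 genes, against 22.4% of 4274 protein-coding genes at 10 FPKM or more. The list was chosen with these data known, so the count is a description. Besides Clca1, Ang4 was at 1711, 1692, 588 and 534 FPKM, Retnlb at 1075, 1517, 553 and 485 FPKM and Fcgbp, a mucus protein found with Muc2, at 568, 733, 289 and 200.4 FPKM. Itln1, a lectin for bacterial sugars, was at 26.4, 33.5, 11.5 and 9.80 FPKM. For each of these 5 the libraries split in the same way. Other genes of the lineage spread less: Tff3, a trefoil peptide, was at 507, 437, 314 and 509.9 FPKM, Zg16, a lectin of mucus, at 375, 454, 213 and 372 FPKM, Agr2, which folds mucins, at 579, 718, 514 and 498 FPKM and the fate factor Atoh1 at 29.5, 38.5, 22.4 and 21.1 FPKM. Spdef, a factor of goblet maturation, was at 39.8, 38.5, 40.1 and 33.0 FPKM, with a CV of 8.70%. Without Clca1 the sum was 6894, 7695, 4142 and 4345 FPKM, with the same split. The absorptive list showed no such order, with 1 of 24 genes higher in both of controls 1 and 2. The median transcript GC content of the goblet list was 52.4%, against 50.9% for the protein-coding genes at 10 FPKM or more.

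**Figure D4:**
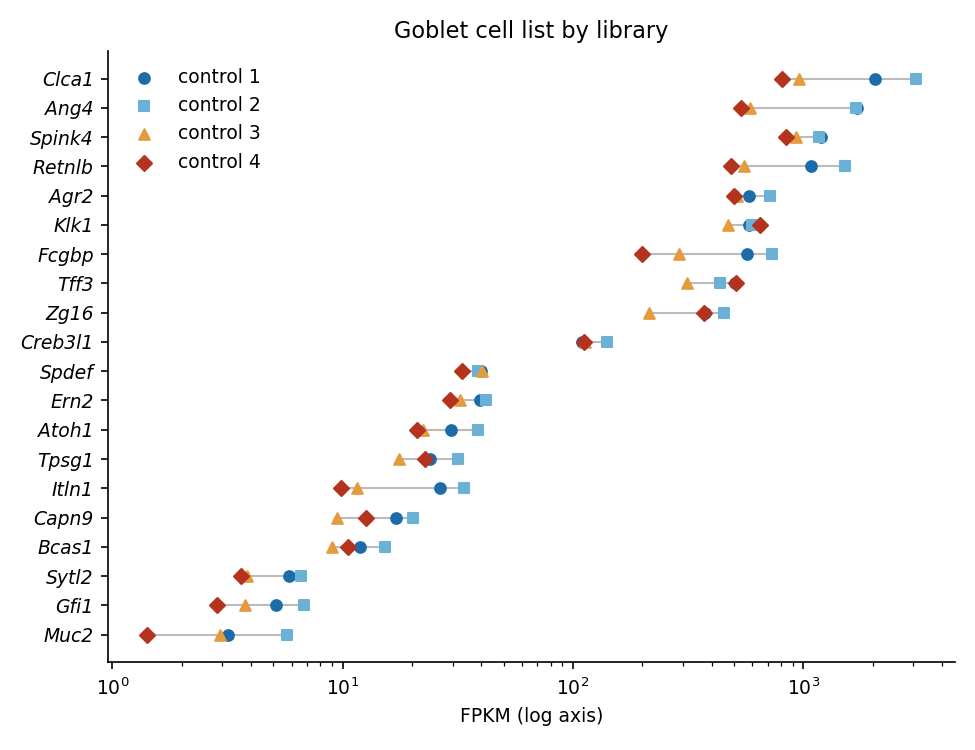
Levels of the 20 goblet cell genes in FPKM on a log axis, 1 symbol per control library and a grey line over their range. Controls 1 and 2 lie above controls 3 and 4 for Clca1, Ang4, Retnlb, Fcgbp and Itln1, and the split is smaller or missing for Klk1, Tff3 and Zg16.

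Defence genes outside the goblet lineage did not share 1 order of libraries. Mptx1 and Pigr, described above, were higher in controls 1 and 2 than in controls 3 and 4, whereas others differed. Of 18 antimicrobial and barrier genes 14 reached 10 FPKM. Il18, a cytokine made by epithelium, was at 49.4, 47.5, 54.6 and 87.0 FPKM and Duox2, an oxidase that makes hydrogen peroxide, at 32.6, 28.1, 33.6 and 27.9 FPKM. Some genes known for their high level in inflamed colon were low on water. The iron-binding Lcn2 was at 0.0510, 0.0447, 0.0765 and 0.0766 FPKM and the acute phase gene Saa3 at 2.002, 0.562, 1.62 and 1.31 FPKM. Nos2, which makes nitric oxide, was at 1.64, 1.68, 3.56 and 1.63 FPKM. For Nos2 control 3 lay above the other libraries. In contrast, Reg3b, a lectin that binds bacteria, was not low, at 215, 74.0, 243 and 484 FPKM. Its relative Reg3g was at 27.5, 8.78, 29.0 and 39.3 FPKM, and both were lowest in control 2 and highest in control 4. Lpo, a peroxidase, was at 24.5, 22.9, 29.3 and 166 FPKM, with control 4 standing apart. The classical MHC class I gene H2-D1 was at 114, 182, 369 and 336 FPKM and H2-K1 at 127, 162, 241 and 279 FPKM. The linked gene H2-Q2 was at 4.94, 17.5, 50.01 and 40.1 FPKM and H2-Q4 at 1.91, 5.55, 19.5 and 17.6 FPKM. All of these class I genes were lower in controls 1 and 2 than in controls 3 and 4. B2m, their shared light chain, ran the other way at 896, 901, 791 and 649 FPKM. The class I genes are close relatives that differ between mouse strains, and strain is not stated in the labels.

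MHC class II genes, which present antigen to helper T cells and are induced in epithelium by interferon-γ, were highest in control 4. H2-Aa was at 0.722, 1.80, 1.59 and 11.2 FPKM, H2-Ab1 at 5.21, 5.36, 4.85 and 18.1 FPKM and H2-Eb1 at 0.482, 1.69, 2.41 and 13.7 FPKM. Cd74, the invariant chain, was at 44.4, 68.9, 42.9 and 112 FPKM. For these 4 genes control 4 was above every other library, but for Ciita, the factor that switches them on, it was not, at 0.828, 0.971, 0.260 and 0.730 FPKM. Markers of B cells and macrophages, which also carry class II, differed in where they stood. The summed level of B cell and plasma cell genes was 33.8, 25.05, 10.03 and 7.36 FPKM, lowest in control 4. That of monocyte and macrophage genes was 43.0, 43.2, 37.9 and 51.5 FPKM, highest in control 4, as was Cd14, which made up most of it. Without Cd14 the sum was 9.28, 6.57, 6.54 and 7.03 FPKM. In bulk RNA the cells that carried the class II fragments were not identified. The median transcript GC content of the 5 genes, Ciita included, was 55.2%, against 49.7% for protein-coding genes at 1 FPKM or more. The part of base composition was not tested.

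Control 4 also differed from controls 1 to 3 in the circadian clock. In the clock, Arntl and its partners Clock and Npas2 switch on E-box genes, among them Per, Cry, Nr1d and the D-box activators Dbp and Tef. Nr1d1 and Nr1d2 in turn repress Arntl, Npas2 and Nfil3 through ROR elements, and the activating and repressed arms peak at opposite times of day. Dbp was at 14.6, 13.8, 28.4 and 1.52 FPKM and Tef at 18.8, 13.6, 22.2 and 2.30 FPKM, both lowest in control 4. The repressor gene Nr1d1 was at 34.0, 34.8, 31.2 and 10.4 FPKM and its relative Nr1d2 at 19.2, 18.2, 23.1 and 4.48 FPKM. Per3, of the period family, was at 5.15, 3.86, 6.64 and 1.21 FPKM. Ciart, a repressor of the Arntl complex, was at 3.46, 2.77, 6.84 and 0.622 FPKM. Control 4 was the lowest library for all 6 of these genes. The arm that Nr1d1 represses ran the other way: Arntl was at 1.48, 2.68, 1.32 and 7.66 FPKM, Npas2 at 3.06, 5.03, 3.17 and 9.91 FPKM, Nfil3 at 3.86, 3.12, 2.01 and 9.52 FPKM and Cry1, which has both kinds of element, at 5.09, 4.38, 7.01 and 10.9 FPKM, each highest in control 4. Per1 was at 6.25, 5.73, 13.7 and 4.79 FPKM and Per2 at 9.34, 5.76, 12.1 and 5.29 FPKM, both lowest in control 4 by a small margin, and Clock did not set control 4 apart, at 8.91, 9.53, 7.35 and 7.31 FPKM. Over the 16 clock genes control 4 was lowest in 10 and highest in 4, while over protein-coding genes at 1 FPKM or more it was lowest in 35.5% and highest in 34.4%. The median length of the 16 genes was 5743.5 bases, against 4355 for those protein-coding genes, and the part of length was not tested. The labels give no time of collection.

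The promoters of clock genes are shown because the arms of the clock are known for short elements near the start. Only promoters that held a match are shown, so they do not stand for all the clock genes. The stretches are the bases before the start in RefSeq (GRCm38.p6), read 5′ to 3′ on the gene's strand, with matches in capitals: CACGTG (E-box), TTATGNAA (D-box), and TAGGTCA or TGGGTCA (ROR element), each searched on both strands. Those of genes that were low in control 4 come first (Tef, plus strand, chr15:81802533-81802672, the first of 2 starts listed; Ciart, minus, chr3:95882229-95882358; Per1, plus, chr11:69098769-69098948, the first of 2; Per3, minus, chr4:151044666-151044875), then those that were high there (Cry1, minus, chr10:85185055-85185134; Nfil3, minus, chr13:52981040-52981099).
Tef: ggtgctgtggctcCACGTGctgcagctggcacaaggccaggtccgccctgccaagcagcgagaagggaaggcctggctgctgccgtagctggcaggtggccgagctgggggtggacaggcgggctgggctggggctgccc
Ciart: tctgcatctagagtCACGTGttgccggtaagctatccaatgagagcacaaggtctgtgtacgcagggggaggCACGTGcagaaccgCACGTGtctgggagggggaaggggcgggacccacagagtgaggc
Per1: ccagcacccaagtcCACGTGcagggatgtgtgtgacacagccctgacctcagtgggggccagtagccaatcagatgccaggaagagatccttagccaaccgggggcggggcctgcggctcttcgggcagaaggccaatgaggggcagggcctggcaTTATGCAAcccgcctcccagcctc
Per3: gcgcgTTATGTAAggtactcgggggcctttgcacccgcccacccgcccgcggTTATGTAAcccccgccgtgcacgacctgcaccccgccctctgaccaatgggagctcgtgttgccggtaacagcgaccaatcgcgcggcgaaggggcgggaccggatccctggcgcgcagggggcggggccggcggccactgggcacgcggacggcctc
Cry1: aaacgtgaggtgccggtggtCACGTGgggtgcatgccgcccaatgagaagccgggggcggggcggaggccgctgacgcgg
Nfil3: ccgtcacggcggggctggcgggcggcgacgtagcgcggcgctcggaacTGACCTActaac
Ciart held 3 E-boxes within 116 bases of its start, Per1 an E-box and a D-box, and Per3 a pair of D-boxes. In Nfil3 the ROR element lay on the opposite strand, 12 bases before the start. Dbp, Nr1d1 and Nr1d2, low in control 4, and Arntl and Npas2, high there, had no match or no promoter in the table. Of the 16 clock genes, 15 had a promoter in the table, and 5 of those held an E-box in the 250 bases before a start (Bhlhe41 beside those shown), 2 a D-box and 1 a ROR element. Among all 32851 promoters the shares were 6.02, 3.07 and 5.38%. These shares are per promoter, whereas a clock gene was counted if any of its listed starts held the element. These matches describe letters, and binding was not measured.

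**Figure D5:**
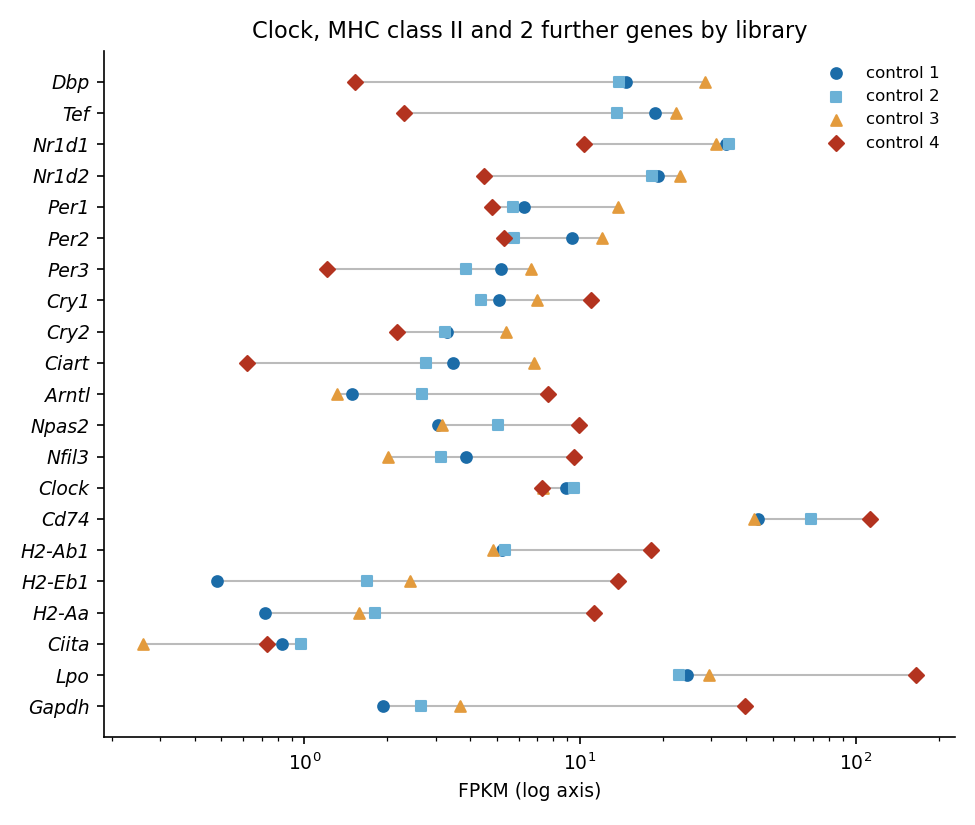
Levels of 14 clock genes, 5 MHC class II genes, Lpo and Gapdh in FPKM on a log axis, 1 symbol per control library and a grey line over their range. Control 4 (red diamonds) is the lowest library for Dbp, Tef, Nr1d1, Nr1d2, Per3 and Ciart and the highest for Arntl, Npas2, Nfil3, Cry1, Cd74, H2-Ab1, H2-Eb1, H2-Aa, Lpo and Gapdh.

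Across all genes, control 4 stood apart most often. For 157 of the 4574 genes above 10 FPKM the gap to the nearest library, over the whole range, was above Dixon's 95% critical value, against 27 to 54 genes for each other library. Across all 4 libraries 269 of these genes (5.88%) passed that value, near the 1 in 20 that chance flags in groups of this size. Of 4274 protein-coding genes at 10 FPKM or more, control 4 was the highest in 41.2% and the lowest in 32.5%. It was highest for 62 of 84 ribosomal protein genes and 65 of 98 nuclear genes of the respiratory chain and ATP synthase, whose median lengths were 1754.5 and 1559.5 bases against 3569 for the protein-coding genes at 10 FPKM or more. The acidic ribosomal protein gene Rplp1 was at 1139.5, 1696, 1874 and 2596 FPKM and Phgr1, rank 18, at 503, 1179.7, 1459 and 2249.7 FPKM, both lowest in control 1 and highest in control 4. Among genes of transport the order was turned, and control 4 was the lowest library for 20 of 33 electrolyte and water transport genes, whose median length was 4132 bases. The summed level of stem cell and crypt base genes, of median length 6641 bases, was lowest there too, and control 4 was lowest for 15 of 19 genes.

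Outside the protein-coding genes, few RNAs were abundant. The gene Gm23935, typed as a microRNA and 57 bases long, was listed at 5149, 13305, 19935 and 54845 FPKM, above every protein-coding gene in control 4. The ribosomal RNA gene CT010467.1 was at 5218, 6133, 7491 and 8584 FPKM. Such values depend on how ribosomal RNA was removed, which is not given in the sources used here. The summed FPKM of all genes was 438481 in control 4 against 340690 to 364022 in the others. Xist, the long RNA of the inactive X chromosome, was at 46.1, 33.2, 64.9 and 37.4 FPKM. Fragments of the Y-linked genes Ddx3y, Eif2s3y, Kdm5d and Uty summed to 792, 1377, 0 and 648, so that controls 1, 2 and 4 held both Xist and Y-linked RNA and control 3 held Xist alone. The labels state neither sex nor pooling of animals.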

How the data were processed

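RNA sequencing of total RNA from mouse colonic epithelial cells gave a table of FPKM per gene for the 16 libraries, deposited by the authors with each gene's position, length and type. Fragments were counted with featureCounts 1.5.0-p3 on mm10, and DESeq2 1.20.0 was used, per the submitters' processing notes. For the aligner, annotation release, strand setting and treatment of multi-mapped fragments, nothing is given in the sources used here. Positions equalled those of GENCODE M21 for 54821 of 55141 genes. The columns of the 4 control libraries on water were used. Whole fragments were recovered from the steps between FPKM values times gene length, and every value came out whole within 0.05. No groups were compared.

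Genes were ranked by mean FPKM among those typed as protein-coding. The text names the 30 highest, the highest of each of 38 classes, members of 31 gene lists, and genes of largest or smallest spread. Members and lists were chosen with earlier results of these data known. Transcription factors were defined by DNA-binding family or symbol after the table had been seen, and Gapdh, Tpm3, the Rps3a copies, the MHC class I genes, Lpo, the unnamed gene beside Muc2 and the non-coding genes were picked after their values were seen. Some genes that this rule names are not reported here. Intervals are exact Poisson (95%), and the limit for a count of 0 is 3 fragments over the 4 libraries. The spread calculation was tested on simulated data: at a simulated CV of 10% the median was 9.27% over 4074 genes, and at 60% it was 49.1% over 200. Python 3.11.15, pandas 2.3.3, numpy 2.4.6, scipy 1.17.1 and matplotlib 3.10.9 were used.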

Additional observations from a re-analysis of the deposited data

Results flagged for a closer look

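Among 322 levels, shares and sums looked at, 24 had 1 library whose gap to the nearest other library, over the whole range, was above Dixon's 95% critical value. Chance flags about 1 in 20 groups of this size. Some genes looked at, such as Gapdh and Lpo, were picked after their values were seen, so that rate is no yardstick for the 24.

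Control 4 accounted for more of these than any other library. It was highest for Lpo at 166 FPKM against 22.9 to 29.3 FPKM in the other libraries, and for Gapdh at 39.8 against 1.93 to 3.67 FPKM. The MHC class II genes H2-Aa, H2-Ab1 and H2-Eb1 were at 11.2, 18.1 and 13.7 FPKM there, with no other library above 1.80, 5.36 and 2.41 FPKM. The clock repressor gene Nr1d1 was lowest in control 4 at 10.4 against 31.2 to 34.8 FPKM. The same library had the lowest share of P-type ATPases (0.464% of protein-coding FPKM) and of G protein-coupled receptors (0.198%), and the highest share of ribosomal protein genes (6.26%). Its summed level of stem cell and crypt base genes was lowest at 184 FPKM, and that of squamous epithelium genes highest at 5.43 FPKM.

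Control 1 was highest for Pigr at 1881 FPKM, Erbb2 at 49.0 FPKM, Ascl2 at 9.27 FPKM, Rps27rt at 794 FPKM and Slc26a6 at 0.0494 FPKM, the last with no fragment in any other library. Control 3 was highest for Gprc5a at 150.5 FPKM, Per1 at 13.7 FPKM, Scnn1g at 0.649 FPKM, Nos2 at 3.56 FPKM and Muc19 at 0.00735 FPKM, which rested on 1 fragment. Control 2 was highest for Muc1 at 4.54 FPKM and lowest for Pecam1 at 0.0470 FPKM and for the sum of stomach and pancreas genes at 0.1003 FPKM.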

How the results depend on the processing

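The 30 highest genes depended on length scaling: recovered fragments without it kept 20 of the 30, whereas the other summaries and scalings kept 29 or all 30, as did leaving out any library. The count of 10403 protein-coding genes became 16199 when 1 fragment in any library was enough, and ranged from 10389 to 10404 without each library. The share of the 100 highest genes, 42.8%, was 25.4% of recovered fragments, 29.4% without mitochondrial genes and 45.0% over genes of all types. That of solute carriers, 1.11%, was 1.87% of recovered fragments and 1.39% without mitochondrial genes. These changes follow from the denominators and the length scaling themselves. The number of genes with a CV above 50% rose from 95 to 775 of 12378 when genes down to 1 FPKM were counted, and ranged from 75 to 124 without each library. Without length scaling the ranks of 162 of 244 named genes moved by more than the spread of their ranks. Sums of the marker lists moved by less than 1 SD when rescaled to TPM. That rescaling was set to the mean summed FPKM and only means were compared, so it hardly tests the sums. How TPM changes the split of the sums between libraries was not tested. Leaving out 1 of 4 libraries cannot move a mean by 1 SD, so that setting does not test the sums. No paired analysis was possible because 1 group was described and nothing was compared between groups.

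With 4 libraries, SDs are rough. Genes with close copies, short genes and genes of extreme base composition carry the most uncertainty, and the part of multi-mapped fragments, length and composition in their FPKM was not tested. Levels under the limit of 3 fragments over the group cannot be told from 0. The labels give neither animals, sex, age, strain nor time of day, so none of these can be told apart from the spread between libraries.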

Other observations

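Several other protein-coding genes above 10 FPKM spread widely between the 4 libraries. Slfn4, a member of the interferon-inducible Schlafen family, was at 122, 98.1, 44.2 and 20.1 FPKM, with controls 1 and 2 above controls 3 and 4. Selenbp2, a selenium-binding protein, ran the other way at 4.89, 6.5003, 25.6 and 16.8 FPKM. Pnliprp2, a lipase, was at 13.7, 23.1, 5.83 and 2.77 FPKM, with the highest value in control 2 and the lowest in control 4. S100g, the calcium-binding protein of vitamin D-dependent calcium uptake, was at 87.5, 46.7, 113 and 36.8 FPKM. Sprr2a3, a small proline-rich protein of the epithelial surface, was at 145, 121, 27.9 and 60.5 FPKM, with controls 1 and 2 above the others. Lars2, the mitochondrial leucyl-tRNA synthetase, was at 19.8, 30.5, 36.1 and 82.3 FPKM, in the same order of libraries as the small RNA gene Gm23935.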
